A study of Mus musculus with 8 samples.

Results

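Oestrogen-induced secretory epithelial genes are a list of 9 mouse genes whose products are made by uterine epithelium under oestrogen: Ltf, Lcn2, C3, Clca1, Greb1, Padi1, Padi2, Padi4 and Olfm1. Members were found by their symbol in the platform annotation, and 8 of the 9 had a probe set, out of 19505 genes with a symbol. C3 was not analysed here. Each of the 8 had 1 probe set, so no choice between probe sets was needed. The members were chosen by their log2 values per mouse and their exposed minus sham difference, known from earlier results of these arrays, among them the wide spread of Ltf. Their differences between groups are therefore given as a description, without a test.

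The exposed group comprised 4 wildtype C57BL/6J females, an inbred strain. They inhaled e-cigarette aerosol of propylene glycol and vegetable glycerin carrying nicotine at 24 mg/mL in daily sessions of 3 hours, with 2 puffs every minute and the atomizer at 245 °C. Sessions took place on 5 days of each week during the 4 weeks that preceded mating and then daily up to collection. The sham group comprised 4 females of the same strain and genotype kept in room air. All 8 had been mated to vasectomized males, so that no embryo was present, and the uterus of each was collected on the morning of day 4.5 of pseudopregnancy, counted from the copulatory plug at day 0.5. Each array carries total RNA of 1 mouse, and values are log2 expression, on which a difference of 1 is a doubling. The sources used here state neither the ages of the mice nor the hour of collection.

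Oestrogen acts on the uterine epithelium through the oestrogen receptor in the epithelium itself and in the stroma below it, and makes the epithelium divide and secrete. Progesterone, which dominates in early pregnancy and pseudopregnancy, holds much of this secretory response down, and a brief rise of ovarian oestrogen before implantation acts on a uterus already under progesterone. Lactotransferrin is the classical secretory product by which oestrogen action on mouse uterine epithelium is read. No hormone was measured here, so the name of the list is background and was not tested.

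The promoters of 7 members are held in RefSeq's table for build GRCm38.p6, as 9 sequences that run from 250 bases before to 50 bases after a start site. They were searched on both strands for the full oestrogen response element GGTCANNNTGACC, for its half-site GGTCA, which a full element also contains, for the AP-1 element TGANTCA and for the Sp1 box GGGCGG. Of the 9 sequences, 0 held the full element, which occurs in 0.07% of all 32851 promoters of that length. A half-site was found in 5 of the 9, from 4 genes, against 40.5% of all promoters. The Sp1 box was in 4 of the 9 (35.7% of all) and the AP-1 element in 1, that of Padi4 (7.81% of all). Such matches describe letters in a short window and say nothing of binding.

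Ltf and Lcn2 are printed because they had the widest spread between mice among the members with a promoter in the table. Greb1 and Padi4 are printed as examples with a half-site. A sequence of Olfm1 also holds a half-site and is not printed. Capitals mark the half-site. The Ltf sequence is chr9:111019042-111019341 on the plus strand, with its half-site 45 bases before the start. The Lcn2 sequence is chr2:32387690-32387989 on the minus strand and has 0 half-sites. The Greb1 sequence, the first of 2 in the table, is chr12:16757190-16757489 on the minus strand, with 2 half-sites. The Padi4 sequence is chr4:140774154-140774453 on the minus strand, with its half-site at base 7 after the start, on the opposite strand.
Ltf: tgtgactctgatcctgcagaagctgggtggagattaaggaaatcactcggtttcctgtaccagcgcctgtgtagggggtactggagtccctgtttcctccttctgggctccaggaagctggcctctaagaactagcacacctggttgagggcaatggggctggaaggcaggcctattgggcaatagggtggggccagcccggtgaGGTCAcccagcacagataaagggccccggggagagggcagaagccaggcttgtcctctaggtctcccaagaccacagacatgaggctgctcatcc
Lcn2: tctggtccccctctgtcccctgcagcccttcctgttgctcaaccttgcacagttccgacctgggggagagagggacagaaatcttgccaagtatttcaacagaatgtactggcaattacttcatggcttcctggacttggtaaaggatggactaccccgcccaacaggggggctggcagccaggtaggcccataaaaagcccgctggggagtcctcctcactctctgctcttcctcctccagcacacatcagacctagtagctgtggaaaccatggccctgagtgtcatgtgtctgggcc
Greb1: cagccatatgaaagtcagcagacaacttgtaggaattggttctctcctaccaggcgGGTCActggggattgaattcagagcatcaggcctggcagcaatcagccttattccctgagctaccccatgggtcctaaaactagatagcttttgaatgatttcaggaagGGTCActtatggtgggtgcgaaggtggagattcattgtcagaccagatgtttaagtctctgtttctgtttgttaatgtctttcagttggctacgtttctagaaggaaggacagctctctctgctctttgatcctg
Padi4: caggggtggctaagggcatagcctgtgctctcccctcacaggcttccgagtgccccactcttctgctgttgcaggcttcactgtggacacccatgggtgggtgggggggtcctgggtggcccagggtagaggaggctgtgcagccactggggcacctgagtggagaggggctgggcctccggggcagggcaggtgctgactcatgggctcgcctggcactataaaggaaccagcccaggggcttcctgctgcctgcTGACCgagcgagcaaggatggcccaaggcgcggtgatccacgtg

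Across the whole array limma called 0 of 22206 probe sets at an adjusted p of 0.05 (0.0% called), and 1203, or 5.42%, had an unadjusted p under 0.05. Of the 8 members, 0 were called at either level, and since this contrast was treated as used in choosing the members, nothing is read from that count. Exposed mouse 4 stood apart from the other arrays, as it held the highest value of all mice for 21.3% of genes and the lowest for 20.9%. Exposed mouse 2 and sham mouse 4 held the highest value for 15.3% and 10.1% of genes. The labels name no batch. Epithelial markers were present in every uterus: Epcam, an adhesion molecule of epithelia, lay between 8.80 and 9.37 in exposed mice and between 8.71 and 9.34 in sham mice.

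Ltf, Lcn2 and Clca1 differed widely between mice of the same group. Of all 19505 genes, Clca1 had the second widest SD over the 8 mice (2.16), Lcn2 stood in place 4 (1.88) and Ltf in place 6 (1.81), where the median gene had an SD of 0.17. The median SD of the 8 members was 0.81. Padi1 stood in place 67, Greb1 in place 316, Padi2 in place 657, Olfm1 in place 671 and Padi4 in place 1555. Without sham mouse 4 the places of Clca1, Lcn2 and Ltf were 8, 27 and 41, and those of Padi2 and Padi4 were 1292 and 11508. Olfm1 stood in place 16825 without exposed mouse 4, Greb1 in place 1631 without exposed mouse 2 and Padi1 in place 307 without exposed mouse 3.

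**Figure D1:**
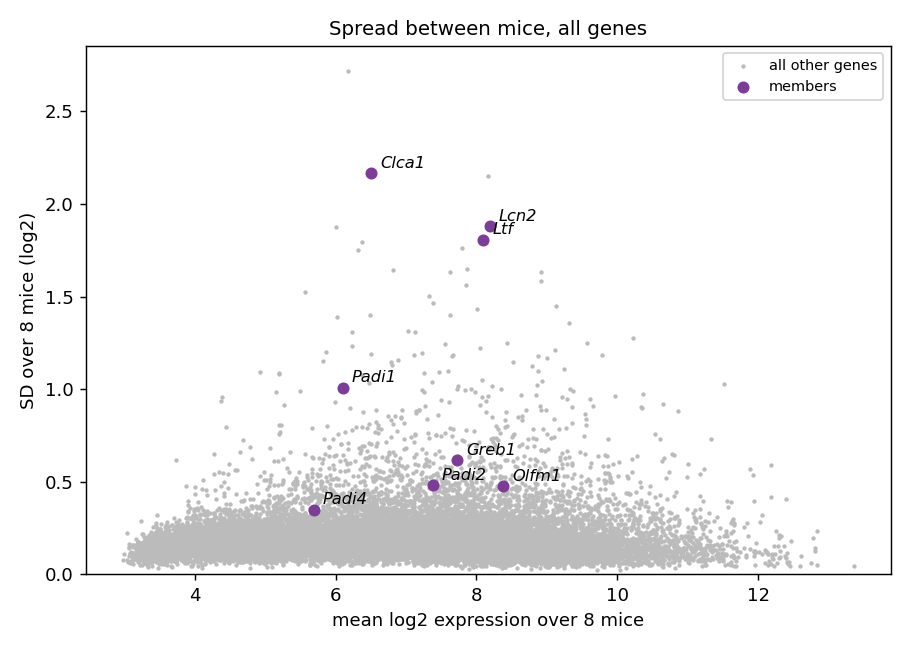
SD of log2 expression over the 8 mice (vertical axis) against mean log2 expression (horizontal axis), 1 point per gene, with the 8 members in purple. Clca1, Lcn2 and Ltf lie near the top of the plot with SDs of 2.16, 1.88 and 1.81, and Padi4 lies lowest of the members at 0.35.

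Ltf encodes lactotransferrin, an iron-binding antimicrobial protein of secretions. Its values were 9.09, 7.94, 7.28 and 6.27 in exposed mice 1 to 4, against 6.69, 6.70, 9.19 and 11.67 in sham mice 1 to 4. Sham mouse 4 was highest, sham mouse 3 and exposed mouse 1 lay close together below it, and the groups overlapped. The highest and lowest uterus differed 42.1-fold, and the 4 sham mice alone spanned 31.4-fold. Group means were 7.65 ± 1.18 in exposed and 8.56 ± 2.38 in sham mice (SD, n = 4 each), a difference of -0.92 (95% interval -3.21 to 1.37). Without sham mouse 4 the difference was 0.12.

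Lcn2 encodes lipocalin 2, which binds bacterial siderophores and so withholds iron. It measured 8.17, 10.08, 7.80 and 7.46 in exposed mice 1 to 4, against 6.01, 6.68, 7.52 and 11.79 in sham mice 1 to 4. Sham mouse 4 and then exposed mouse 2 were highest, while the other sham mice lay at the low end and the groups overlapped. The extremes, both in the sham group, differed 54.9-fold. The difference of the means was 0.38 (95% interval -2.08 to 2.84). It was -0.19 without exposed mouse 2 and 1.64 without sham mouse 4, so its size and its sign rest on single mice.

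Clca1 encodes a secreted metalloprotease of mucus-producing epithelia that acts on calcium-activated chloride channels. Its values of 6.15, 9.30, 5.44 and 4.28 in exposed mice 1 to 4 compare with 4.70, 5.12, 6.90 and 10.17 in sham mice 1 to 4. It was high in exposed mouse 2 and sham mouse 4 and low in exposed mouse 4 and in sham mice 1 and 2, with full overlap of the groups. The range over all mice was 59.4-fold, with 32.4-fold among exposed and 44.5-fold among sham mice. The difference of the means was -0.43 (95% interval -3.26 to 2.40). It was 0.72 without sham mouse 4 and -1.43 without exposed mouse 2, and its sign also turned without exposed mouse 4.

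Olfm1 encodes olfactomedin 1, a secreted glycoprotein. It measured 8.25, 8.37, 8.25 and 9.54 in exposed mice 1 to 4, against 8.12, 8.20, 8.08 and 8.21 in sham mice 1 to 4. All exposed values lay above all sham values, by a narrow margin except in exposed mouse 4. Olfm1 was the 1 member of 8 whose groups did not overlap, where 2.73% of all probe sets showed no overlap. The difference was 0.45 (95% interval -0.12 to 1.01), and 0.14 without exposed mouse 4. Of 9 genes used as gland markers, 3 were highest in exposed mouse 4, which was highest for 21.3% of all genes. They were the serine proteases Prss28 (12.64) and Prss29 (12.04) and the protease inhibitor Spink1 (12.22). Cxcl15, Foxa2 and Aldh1a1, of the same list, were at their lowest of all mice there, at 6.51, 7.16 and 7.08. The part of these genes in the Olfm1 value was not tested.

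**Figure D2:**
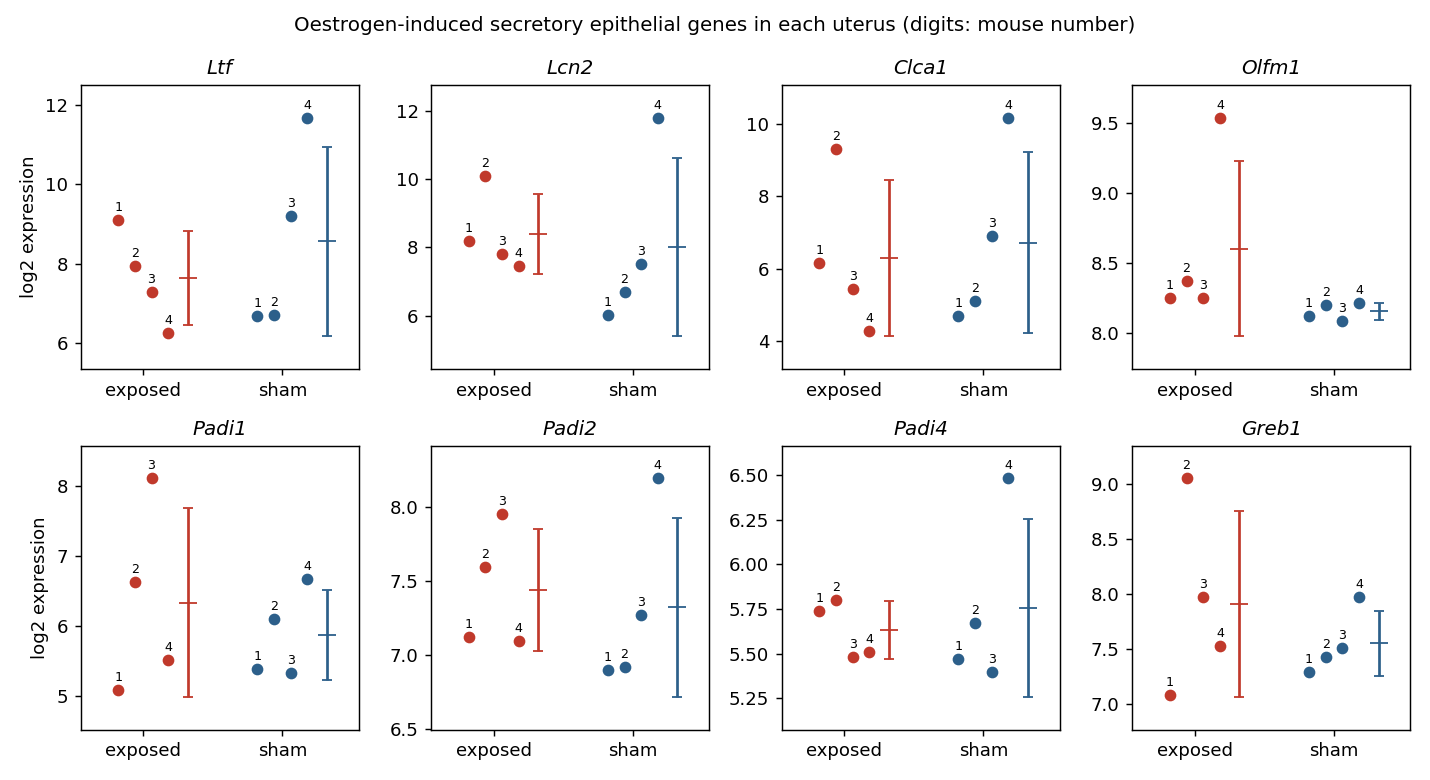
Log2 expression (vertical axis, own scale per panel) of the 8 members in 4 exposed (red) and 4 sham (blue) uteri, 1 point per mouse with its number and bars for the mean ± SD. Sham mouse 4 is highest for Ltf, Lcn2, Clca1, Padi2 and Padi4, exposed mouse 2 for Greb1, exposed mouse 3 for Padi1 and exposed mouse 4 for Olfm1.

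The peptidylarginine deiminases turn arginine residues of proteins into citrulline. Padi1, Padi2 and Padi4 lie in 1 cluster on chromosome 4, in which RefSeq places Padi6, Padi4, Padi3, Padi1 and Padi2 next to each other. Padi1 measured 5.09, 6.63, 8.11 and 5.52 in exposed mice 1 to 4, against 5.39, 6.10, 5.33 and 6.68 in sham mice 1 to 4. Exposed mouse 3 was highest, with sham mouse 4 and exposed mouse 2 next. The difference of the means was 0.46 (95% interval -0.83 to 1.76), and -0.13 without exposed mouse 3.

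Padi2, the deiminase with the broadest tissue distribution, measured 7.12, 7.59, 7.95 and 7.09 in exposed mice 1 to 4, against 6.90, 6.92, 7.27 and 8.19 in sham mice 1 to 4. The same 3 mice as for Padi1 were highest, with sham mouse 4 first. The difference was 0.12 (95% interval -0.53 to 0.76), -0.06 without exposed mouse 3 and 0.40 without sham mouse 4. Padi4, which citrullinates histones and is abundant in neutrophils, measured 5.74, 5.80, 5.48 and 5.51 in exposed mice 1 to 4, against 5.47, 5.67, 5.40 and 6.48 in sham mice 1 to 4. Only sham mouse 4 departed from a narrow band, and the difference of -0.13 (95% interval -0.60 to 0.35) became 0.12 without it.

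The other genes of the cluster kept to narrow ranges. Padi3 lay between 4.67 and 5.31 in exposed and between 4.84 and 5.03 in sham mice. Padi6, the deiminase of the oocyte, lay between 3.85 and 4.28 in exposed and between 3.76 and 4.04 in sham mice. The genes on either side of the cluster were Rcc2, with values of 8.90 to 9.25 in exposed and 8.92 to 9.15 in sham mice, and Sdhb, with values of 8.33 to 9.02 in exposed and 8.85 to 9.05 in sham mice. The spread of Padi1 over 8.11-fold was thus not shared by its neighbour Padi3 in these values. Padi3 and Padi6 lay below the median of all values, 7.08, and a dim probe set can keep to a narrow range for that reason.

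Greb1 encodes an intracellular cofactor of the oestrogen receptor and an early oestrogen target, and is neither a secreted protein nor a deiminase. It measured 7.08, 9.05, 7.97 and 7.53 in exposed mice 1 to 4, against 7.29, 7.43, 7.51 and 7.97 in sham mice 1 to 4. Exposed mouse 2 was highest, and sham mouse 4 and exposed mouse 3 followed at the same value. The 4 exposed mice spanned 3.91-fold and the 4 sham mice 1.61-fold. The difference of the means was 0.36 (95% interval -0.43 to 1.14), and -0.02 without exposed mouse 2.

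Over the 8 members, 5 had a higher mean in exposed mice and 3 a lower one, with a median difference of 0.24, where 50.5% of all probe sets had a higher mean in exposed mice and the median over all genes was -0.001. This count rested on single mice. Without sham mouse 4 all 8 members had a higher mean in exposed mice, and without any 1 of sham mouse 1, sham mouse 2, exposed mouse 2 or exposed mouse 3 the count was 3. The mean of Olfm1 was the higher one in exposed mice in each of the 18 alternatives tried for it.

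**Figure D3:**
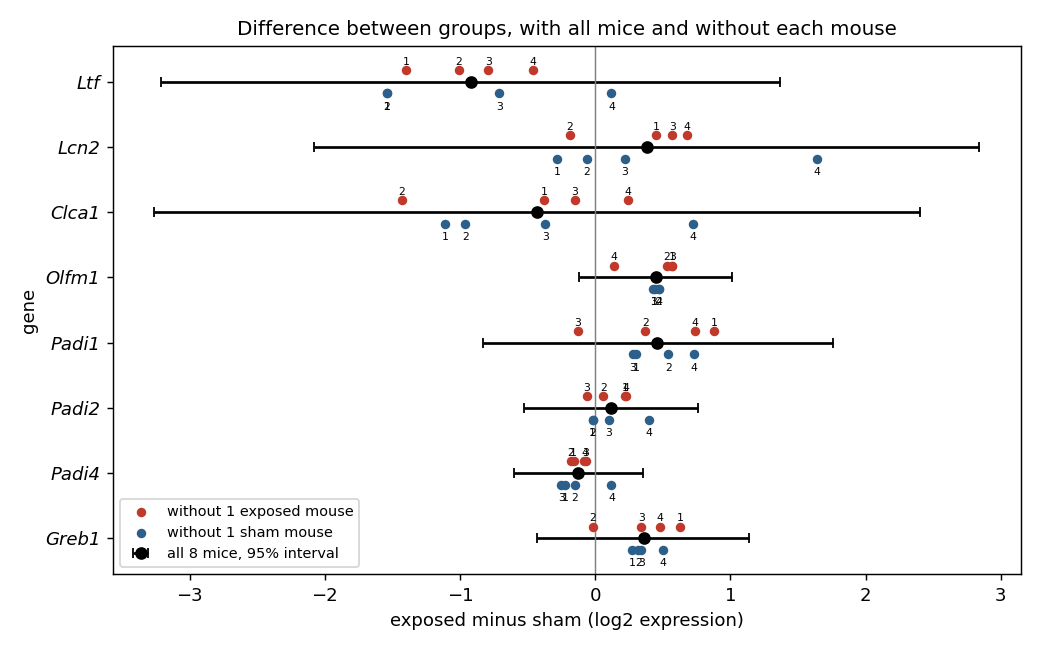
Exposed minus sham difference in log2 expression (horizontal axis) for each member (vertical axis), with all 8 mice and its 95% interval in black, and without 1 exposed (red) or 1 sham (blue) mouse, the digit naming the mouse left out. Each interval includes 0, and leaving out sham mouse 4 takes Lcn2 to 1.64 and turns Ltf, Clca1 and Padi4 above 0.

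Exposed mouse 2 was highest for 1 of the 8 members, where it was highest for 15.6% of all probe sets, and it was among the highest pair of mice for 5, where it was so for 30.3% of all genes. Sham mouse 4 was highest for 5 members, where it was highest for 9.91% of all probe sets, and was among the highest pair for 7, where it was so for 22.6% of all genes. These counts only describe the members, whose choice was treated as made with such values known. Each gene was then standardised over the 8 mice, and the likeness of a pair of genes was taken as the root mean square difference of their standardised values, in SD units, with 0 for the same pattern. Lcn2 and Clca1 were the closest pair of members at 0.36, followed by Lcn2 and Padi4 at 0.49. Ltf differed by 0.58 from Clca1 and by 0.61 from Lcn2. Padi1 came closest to its cluster neighbour Padi2, at 0.65. Olfm1 lay at 1.32 to 1.57 from every other member. For comparison, the median over pairs of genes outside the list with an SD of at least 0.5 was 1.29.

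Genes outside the list were then ordered by their likeness to the members' mean profile, among 576 genes with an SD of at least 0.5. Mal2, which acts in transcytosis across epithelial cells, was closest at 0.28, against a median of 1.41 over the 576 genes. It measured 7.33, 8.70, 7.25 and 7.53 in exposed mice 1 to 4, against 6.72, 6.91, 7.08 and 9.37 in sham mice 1 to 4. C4bp, an inhibitor of complement, followed at 0.30, Aldh1a1, a retinaldehyde dehydrogenase, at 0.32 and Cxcl14, a chemokine, at 0.33. Next came Cftr, an epithelial chloride channel, at 0.35, Slc40a1, the iron exporter ferroportin, at 0.40, Plet1 at 0.43 and Thbs2, a matrix glycoprotein, at 0.44. Cftr also stands in the list of other oestrogen-induced genes, and Aldh1a1 among the gland markers. In each of these 8 genes sham mouse 4 and exposed mouse 2 were the highest pair. The members' mean profile, by which they were chosen, was itself highest in these 2 mice, so this is no separate result. Cxcl14 reached 10.31 in exposed mouse 2 and 10.16 in sham mouse 4, with 7.97 to 8.62 in the other exposed and 7.38 to 7.82 in the other sham mice.

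The genes closest to Ltf alone were others, where the median difference from Ltf over the same 576 genes was 1.3. Fcgbp, a mucus protein, lay at 0.33, Spink8, a protease inhibitor, at 0.38, Sprr2f, a small proline-rich protein that oestrogen induces in the uterus, at 0.39, Bcl2l15 at 0.41 and Atp10b, a phospholipid transporter, at 0.42. All 5 were highest in sham mouse 4, as was Ltf, by whose values they were chosen. Sprr2f measured 8.84, 9.21, 7.99 and 8.02 in exposed mice 1 to 4, against 8.39, 8.65, 9.26 and 10.81 in sham mice 1 to 4. Its values in sham mice ran in the same order as those of Ltf, which the choice by likeness favours.

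**Figure D4:**
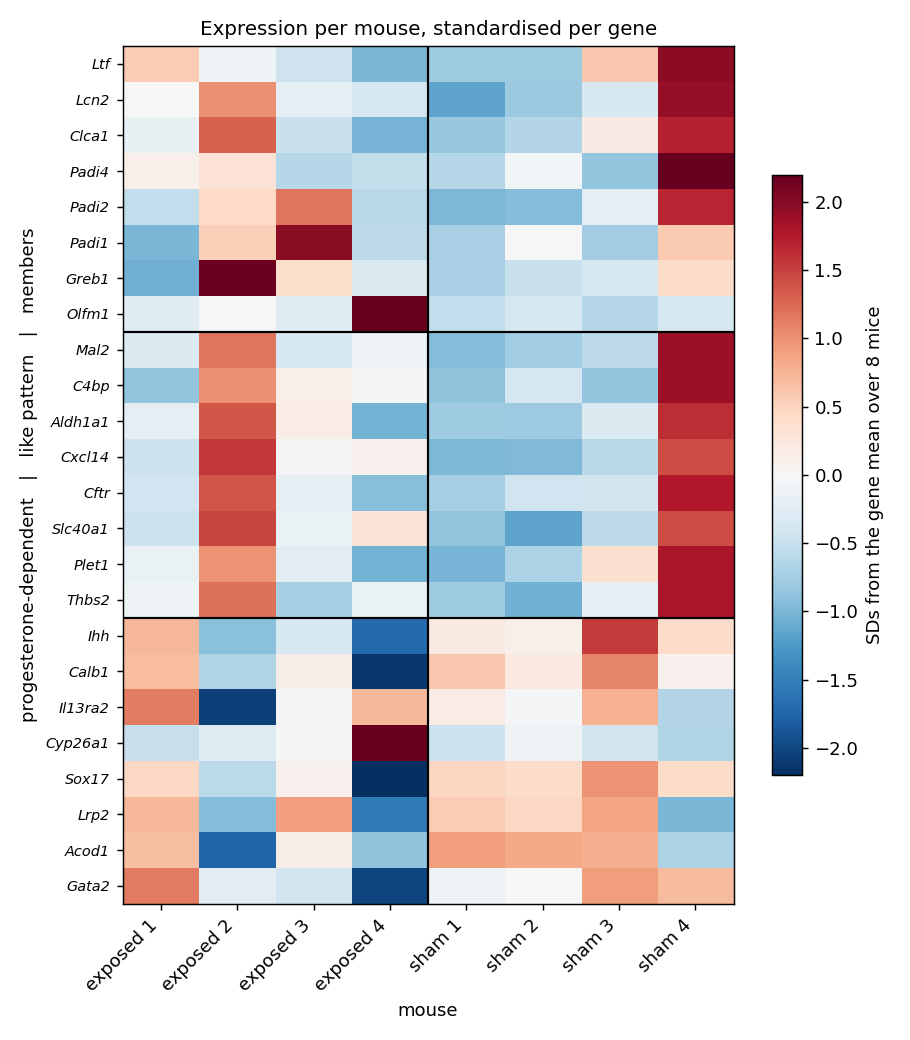
Standardised expression (colour, SDs from the gene's mean over 8 mice) by gene (rows) and mouse (columns, exposed left of sham). The upper block holds the 8 members and the middle block the 8 genes of most like pattern, chosen for that likeness. The lower block holds 8 progesterone-dependent epithelial genes. Sham mouse 4 and exposed mouse 2 are high in the middle block. In the lower block Acod1, Lrp2, Il13ra2 and Cyp26a1 lie below their mean in both. Lrp2 is lowest in exposed mouse 4, where Il13ra2 and Cyp26a1 lie above their mean. Gata2, Ihh, Sox17 and Calb1 lie above their mean in sham mouse 4.

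Of 24 other genes that oestrogen induces in uterine epithelium, 20 were measured, and 0 passed limma's test in either direction. In this list 8 had a higher and 12 a lower mean in exposed mice, with a median difference of -0.07. Sham mouse 4 was highest for 8 of the 20, where it was highest for 9.91% of all probe sets. Among the 8 were the related genes Sprr2b, Sprr2d, Sprr2e and Sprr2f. Sprr2g, of the same family, was not, as it was highest in sham mouse 2 at 4.86 and measured 3.89 in sham mouse 4. Cftr and Sprr2f, both among the 8, were named above for their likeness to the members or to Ltf. Cftr measured 4.74, 6.51, 4.93 and 4.24 in exposed mice 1 to 4, against 4.44, 4.73, 4.75 and 6.89 in sham mice 1 to 4. Not every gene of the list took that form: Aqp5, a water channel, measured 7.22, 7.91, 8.60 and 9.21 in exposed mice 1 to 4, against 7.51, 7.70, 7.17 and 7.85 in sham mice 1 to 4. Its difference of 0.67 ± 0.36 (SE) did not pass limma's test (adjusted p = 0.838). The same adjusted p applied to Car2, a carbonic anhydrase (0.60 ± 0.25), Sprr1a (0.24 ± 0.10) and Cd14, a lipopolysaccharide co-receptor (-0.41 ± 0.20), in limma's fit over all probe sets.

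Among 19 measured oestrogen-responsive genes of the whole uterus, 11 had a higher and 8 a lower mean in exposed mice, the median difference was 0.02 and 0 passed in either direction. Exposed mouse 2 was highest for 6 of them and sham mouse 4 for 1, where these mice were highest for 15.6% and 9.91% of all probe sets. Exposed mouse 2 was also lowest for 6 of them, among them Igf1 at 10.92, and sham mouse 4 was lowest for 2. Over all genes these mice were lowest for 13.5% and 9.71%. Ramp3, a receptor activity-modifying protein, reached 8.85 in exposed mouse 2 and 8.16 in sham mouse 4, with 7.77 to 8.22 in the other exposed and 7.48 to 7.91 in the other sham mice. Of 10 measured receptors and coregulators, 9 had a higher and 1 a lower mean in exposed mice and 0 passed, with a median difference of 0.11. Esr1, the oestrogen receptor of uterine epithelium and stroma, lay between 9.79 and 10.32 in exposed and between 9.72 and 9.92 in sham mice, and exposed mouse 2 was highest.

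Progesterone-dependent epithelial genes had the largest list median, -0.50, with 1 member higher and 7 lower of 8 measured, and 0 passed limma's test in either direction. The median was -0.29 without exposed mouse 4, -0.32 without sham mouse 3 and -0.36 without exposed mouse 2. Exposed mouse 4 was lowest for 5 of the 8, where it was lowest for 20.9% of all genes. Calb1, a calcium-binding protein, differed by -1.11 ± 0.57 (SE), Sox17, a transcription factor, by -0.61 ± 0.26 and Ihh, the hedgehog ligand of the epithelium, by -0.40 ± 0.18, each with an adjusted p of 0.838 in limma. Acod1, which makes itaconate and is expressed in the receptive luminal epithelium, measured 8.72, 4.74, 7.86 and 6.20 in exposed mice 1 to 4, against 9.13, 8.99, 8.91 and 6.51 in sham mice 1 to 4. Lrp2, or megalin, an endocytic receptor that takes up lipocalin 2, was named after its values were seen. It measured 10.06, 7.41, 10.36 and 6.43 in exposed mice 1 to 4, against 9.80, 9.64, 10.28 and 7.31 in sham mice 1 to 4. Both genes were lowest in exposed mice 2 and 4 and sham mouse 4. Gata2, Ihh, Sox17 and Calb1 did not take that form, as all 4 lay above their mean in sham mouse 4. Il13ra2 took it in part, with its lowest values in exposed mouse 2 (5.19) and sham mouse 4 (6.60) but 7.95 in exposed mouse 4. Cyp26a1, the 1 gene of the list with a higher mean in exposed mice, was highest in exposed mouse 4 at 7.81. Exposed mouse 2 and sham mouse 4 were also the uteri with the highest Lcn2 and Clca1, whereas exposed mouse 4 had the lowest Clca1 and Ltf of all.

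Paralogues of the members had a median SD of 0.18 over 18 measured genes, with the widest for Clca3a1 (0.69), Clca3a2 (0.63) and Clca2 (0.44). Some were dim, such as Lcn5 and Hc with means of 3.91 and 3.72 in exposed mice, where the median of all values was 7.08. Of the 18, 13 had a higher and 5 a lower mean in exposed mice, and 0 passed. Clca4b, of the same family as Clca1, measured 3.93 to 4.10 in exposed and 3.76 to 3.92 in sham mice, with a difference of 0.19 ± 0.09 (SE) and an adjusted p of 0.838 in limma. Clca3a1 had its highest values in other mice than Clca1, at 8.64 in exposed mouse 3 and 8.90 in sham mouse 2. Trf, the transferrin related to lactotransferrin, was highest in exposed mouse 4 at 9.35, with 8.53 to 8.66 in the other exposed and 8.31 to 8.85 in sham mice.

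Among 23 measured complement genes 9 had a higher and 14 a lower mean in exposed mice, the median difference was -0.01 and 0 passed. Cfb, complement factor B, lay between 6.26 and 6.84 in exposed mice, against 7.95 in sham mouse 4 and 6.41 to 6.58 in the other sham mice. Cfi, complement factor I, lay between 6.33 and 7.09 in exposed mice, against 8.23 in sham mouse 4 and 5.88 to 6.28 in the other sham mice. Cfb and Cfi were named after their values were seen, and Cfb also stands in the list of other oestrogen-induced genes. Of the 23 complement genes, exposed mouse 4 was highest for 10 and sham mouse 4 for 5. These mice were highest for 21.3% and 10.1% of all genes. Exposed mouse 2 was lowest for 8 of the 23, where it was lowest for 13.5% of all genes. Cd55, which protects cells from complement, was highest in exposed mouse 4 at 10.44 and differed by 0.65 ± 0.34 (SE) with an adjusted p of 0.838 in limma. Of 17 measured receptors and partners of the members, 9 had a higher and 8 a lower mean in exposed mice and 0 passed. C3ar1, the receptor of a complement C3 fragment, reached 8.74 in exposed mouse 1 and 8.85 in sham mouse 4, with 7.13 to 7.51 in the other exposed and 7.92 to 7.93 in the other sham mice.

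Since Ltf, Lcn2 and Padi4 are also made by neutrophils, markers of these and of other cells were set beside them. In whole tissue, fewer cells of a type and less RNA per cell cannot be told apart. The mean of 12 neutrophil markers lay between 5.55 and 5.72 in exposed and between 5.63 and 5.88 in sham mice, highest in sham mouse 4. Of the 12 markers, 2 were highest in exposed mouse 2 and 3 in sham mouse 4. Over all genes these mice were highest for 15.3% and 10.1%, shares that also stand beside the marker counts below.

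The mean of 11 luminal epithelium markers was 8.67, 8.79, 8.71 and 8.37 in exposed mice 1 to 4, against 8.67, 8.75, 8.93 and 9.09 in sham mice 1 to 4, again highest in sham mouse 4, with a range of 0.73. Of the 11 markers, 2 were highest in exposed mouse 2 and 5 in sham mouse 4. The mean of 8 smooth muscle markers was lowest in exposed mouse 2 at 10.70 and next lowest in sham mouse 4 at 11.01, with 11.10 to 11.33 in the other exposed and 11.36 to 11.44 in the other sham mice. The mean of 10 squamous epithelium markers, which would mark cervix or vagina in the sample, had a range of 0.16 over all mice. Of the 10 markers, 1 was highest in exposed mouse 2 and 3 in sham mouse 4. Those 3 were Krt14 at 7.26, Krt13 at 6.37 and Krt4 at 5.17. The part of these cells in the members' values was not tested. Of 10 marker scores compared between groups by an exact two-sided permutation test, the smallest p was 0.171 (luminal epithelium, exposed minus sham -0.23, and -0.14 without exposed mouse 4) and 0.607 after adjustment over the 10, where 4 against 4 mice cannot go below 0.0286. Among the remaining scores, the exposed minus sham difference was 0.40 for gland markers, and 0.04 without exposed mouse 4. With the median over gland markers in place of the mean, the difference was -0.10. It was 0.14 for endothelium (0.03 without sham mouse 4), 0.03 for squamous epithelium and 0.00 for ciliated and oviduct cells. It was -0.04 for stroma (-0.02 without exposed mouse 2), -0.10 for neutrophils (-0.06 without sham mouse 4) and -0.10 for macrophages (0.05 without exposed mouse 2). For smooth muscle it was -0.20, and -0.06 without exposed mouse 2, and for proliferation -0.33, and -0.12 without exposed mouse 4.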

How the data were processed

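The authors deposited log2 expression values of 22206 probe sets on 8 arrays, as a single table. Arrays were labelled after Affymetrix's protocol per the labels' protocols, and the software Partek appears in the submitters' processing notes. The sources used here do not state how background was corrected or probes were summarised. The log2 scale is read from the values, 2.75 to 13.6. Sorted values differed by at most 0.0198 between arrays, so no further scaling was applied; such scaling hides a change shared by all genes. No background level was available to judge dim probe sets.

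Symbols came from the platform annotation: 19572 probe sets carry 1, 0 several and 2634 none. For the 55 symbols on several probe sets the one with the highest mean was kept. Exposed minus sham was fitted over all probe sets with limma 3.58.1 in R 4.3.3, with Benjamini-Hochberg adjustment and a threshold of 0.05, and tested on simulated data. The rule for naming genes took the members, the 4 genes of smallest p per list, the 8 most like the members' profile and the 5 most like Ltf, without small RNAs, predicted genes and receptors of the olfactory or vomeronasal families. Not all of the 4 genes per list are described in the text. Genes named outside this rule, such as Esr1, were chosen after their values were seen. Members and lists were chosen with earlier results of these data known. Of the genes in these lists, C3, Slpi, Areg and others had no probe set under their symbol and were not analysed here. The number of arrays limits the precision. Alternatives are listed in the closing section.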

Additional observations from a re-analysis of the deposited data

Results flagged for a closer look

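Among the genes of the naming rule, not all of them described above, and the marker scores, Dixon's test was applied to 116 groups of 4 mice. In 13 a single mouse lay far outside the rest. Chance gives about 1 in 20 only for groups not chosen by their values. Named genes were chosen by such values and members were treated as so chosen, so no rate is read from the 13. Sham mouse 4 accounted for 5 genes and 1 score. It was high for Cftr (6.89, others 4.44 to 4.75), Cxcl14 (10.16, others 7.38 to 7.82), Mal2 (9.37, others 6.72 to 7.08), C3ar1 (8.85, others 7.92 to 7.93) and the macrophage markers (7.85, others 7.59 to 7.63), and low for Acod1 (6.51, others 8.91 to 9.13). Cftr, Cxcl14 and Mal2 were chosen for their likeness to the members and are not separate support. The same holds for Olfm1, a member, and for Fcgbp, chosen for its likeness to Ltf.

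Exposed mouse 4 was high for Olfm1 (9.54, others 8.25 to 8.37) and Trf (9.35, others 8.53 to 8.66) and low for Fcgbp (7.16, others 8.21 to 8.37). Sham mouse 3 was low for C1s1 (10.06, others 10.26 to 10.29) and Clca3b (5.42, others 5.68 to 5.73) and high for Sox17 (9.52, others 9.21 to 9.25). Exposed mouse 3 was high for Mmp9 (6.50, others 6.24 to 6.27). Ltf, Lcn2 and Clca1 met no such limit, since their values were spread within each group.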

How the results depend on the processing

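Of 194 values of 12 summary results under alternatives, 184 lay within a set tolerance of the value with all mice and 10 did not; the tolerance was 1.5 times for a count and, for a list's median, 1 SD between mice of the list's mean, which is wide enough to let a sign turn. Without each mouse in turn, the number of probe sets at an adjusted p under 0.05 was 0 to 1 (1 without exposed mouse 1), the number at an unadjusted p under 0.05 was 726 (without sham mouse 2) to 2545 (without exposed mouse 1), and the number of members with a higher mean in exposed mice was 3 to 8. The unadjusted count was 796 when probe sets below the 50th percentile of mean expression were left out, as fewer were tested, and 779 without sham mouse 4 and exposed mouse 2, an alternative chosen after seeing the data. Members called at an adjusted p under 0.05 numbered 0 under each alternative. The members' median difference was -0.12 to 0.48 without single mice and 0.23 without those 2 mice. It turned below 0 without sham mouse 1 (-0.12), sham mouse 2 (-0.04), exposed mouse 2 (-0.10) or exposed mouse 3 (-0.06). Differences of Ltf and Padi4 were 0.02 and 0.06 without those 2 mice, that of Clca1 was 0.01 with array weights, and that of Padi4 was 0.05 with group medians, so these signs are not settled. The sign also turned without 1 of sham mice 1 and 2 or exposed mouse 2 for Lcn2, and without exposed mouse 4 for Clca1. It turned without 1 of sham mice 1 and 2 or exposed mouse 3 for Padi2, without exposed mouse 2 for Greb1 and without exposed mouse 3 for Padi1. The labels number the mice 1 to 4 in both groups but do not say what a number shares, and deviations of same-numbered mice correlated at 0.08, -0.238, 0.085 and 0.075. With the replicate number as a block, 1274 probe sets had an unadjusted p under 0.05, 0 an adjusted one, and the members' median difference was 0.24. With the median over markers, 0 of 10 marker scores reached an exact permutation p under 0.05, and the 80 scores without 1 mouse cannot go below 0.0571.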

Other observations

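Several genes outside the lists also varied widely between mice and were picked after their values were seen. Gabrp, a GABA receptor subunit of epithelia, measured 5.93, 8.78, 6.08 and 8.12 in exposed mice 1 to 4, against 4.15, 4.13, 5.73 and 8.12 in sham mice 1 to 4. A2ml1, a protease inhibitor, measured 6.14, 9.09, 5.70 and 7.69 in exposed mice 1 to 4, against 5.30, 5.12, 6.20 and 9.20 in sham mice 1 to 4. Both were high in exposed mouse 2 and sham mouse 4, as Lcn2 and Clca1 were, and also in exposed mouse 4, where Clca1 was lowest. Prap1, a secreted protein of uterine epithelium, was highest in exposed mouse 4 at 11.60, next in sham mouse 4 at 8.86, and lay between 6.79 and 7.57 in the other exposed and between 6.86 and 7.25 in the other sham mice.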
